A study of Danio rerio with 6 samples.

Results

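The genes described here are 9 transcription factors of ionocytes and of the epidermis they come from: foxi3a, foxi3b, foxi1, gcm2, dmrt2a, foxg1c, gata3, gata2a and tp63. They were found by gene name in a table of 32059 rows, and all 9 were present. RNA had been sequenced from cells sorted as thyroid follicular cells from zebrafish aged 5 months after fertilization. There were 3 pax2a-high libraries, from cells with bright mKO2, and 3 pax2a-low libraries, from cells with dim mKO2. All fish carried 2 reporters: the transgene Tg(tg:nls-EGFP), a nuclear EGFP under the thyroglobulin promoter, and the pax2a:mKO2 knock-in. The sources used here do not say how many fish went into a library, and p-values reflect only how far these libraries spread, which may be technical. The members were proposed with results of the pax2a-high against pax2a-low contrast known. Their values in that contrast are therefore given as a description, without a test of their own.

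Ionocytes are mitochondria-rich cells of fish skin and gill that move sodium, chloride, calcium, acid and ammonium between blood and water. In zebrafish they arise from tp63-positive epidermal precursors. Notch signalling limits how many precursors become ionocytes, and foxi3a and foxi3b, which encode forkhead factors, drive the choice and sustain each other's expression. Several kinds of ionocyte then differ in their transporters: HR cells secrete acid, NaR cells take up calcium, NCC cells take up sodium with chloride, and KS cells carry a potassium channel. Thyroid follicular cells are another lineage, marked by thyroglobulin (tg) and the iodide transporter slc5a5.

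Total counts were 18014891 to 35403210 across pax2a-high libraries, against 6053741 to 10932845 across pax2a-low libraries. The pax2a gene, on whose reporter cells were sorted, had 4969, 8521 and 20604 counts in pax2a-high libraries 1, 2 and 3 and 12, 10 and 2014 counts in pax2a-low libraries 1, 2 and 3. The third pax2a-low library thus stood apart from the other pax2a-low libraries. The thyroglobulin share of counts was 15.3 to 24.0% across pax2a-high libraries, against 0.398 to 3.80% across pax2a-low libraries. Mitochondrial rows took 0.799 to 1.17% of counts across pax2a-high libraries, against 24.1 to 49.0% across pax2a-low libraries.

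Together the 9 factors had 98, 30 and 192 counts across pax2a-high libraries, against 6025, 8847 and 12711 counts across pax2a-low libraries, although the pax2a-high libraries were the deeper ones. As counts per 1000000 after TMM scaling (CPM), their summed level was 5.98, 1.52 and 5.39 across pax2a-high libraries, against 1161, 1098 and 990 across pax2a-low libraries. The pax2a-low sums lay close to each other, while the make-up of the sum changed from library to library. In bulk RNA, fewer cells of a type and less RNA per cell cannot be told apart. Of the 9 genes, 4 had 0 counts in all pax2a-high libraries (foxi3a, foxi1, gcm2 and foxg1c), and gata3 was the only member with counts in all 3 of them. A count of 0 allows up to 3 counts, which is 0.0842 to 0.183 CPM across pax2a-high libraries, against 0.234 to 0.578 CPM across pax2a-low libraries. For 5 members (foxi3b, dmrt2a, foxg1c, gata3 and gata2a) every pax2a-high library lay below every pax2a-low library, an arrangement found in 8.11% of the 12524 genes tested.

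**Figure D1:**
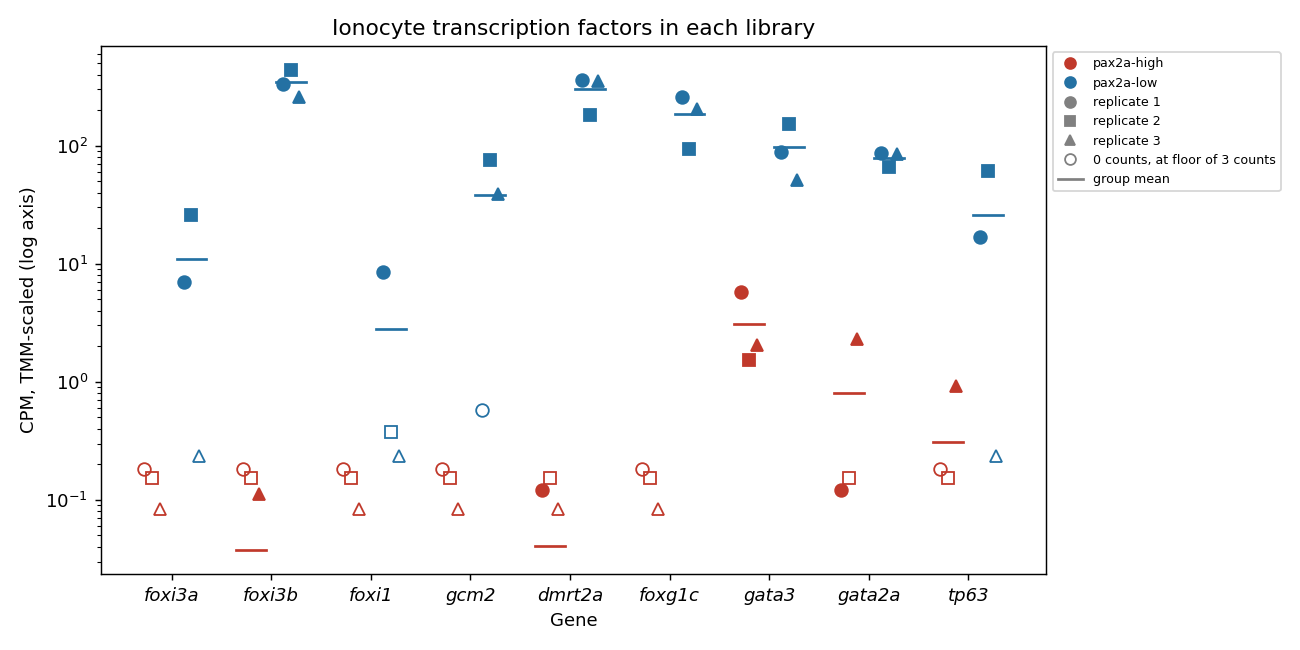
CPM (log axis) of each factor in the 3 pax2a-high (red, left) and 3 pax2a-low (blue, right) libraries, with marker shape for the replicate and a bar for the group mean. Open symbols are libraries with 0 counts, drawn at the floor of 3 counts though they enter the mean as 0. The groups of foxi3b, dmrt2a and foxg1c lie furthest apart, while foxi3a, foxi1, gcm2 and tp63 each have a pax2a-low library at 0.

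Of the forkhead factors that specify ionocytes, foxi3b (ENSDARG00000009550) was abundant in every pax2a-low library and nearly missing from pax2a-high cells. It had 0, 0 and 4 counts across pax2a-high libraries, against 1732, 3530 and 3311 counts across pax2a-low libraries. Its level averaged 0.0374 ± 0.0648 CPM across pax2a-high cells, against 343 ± 90.4 CPM across pax2a-low cells (SD; n = 3 per group). The log2 fold change, pax2a-high minus pax2a-low, was -12.62 (SE 1.14), and -15.06 without pax2a-high library 3, which held all its pax2a-high counts. With pax2a-high cells then at 0 counts, the value of -15.06 depends on the prior count that edgeR adds and is no bound. Even the highest pax2a-high library, at 0.112 CPM, was far below the lowest pax2a-low library, at 258 CPM.

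Its partner foxi3a (ENSDARG00000055926) was seen in fewer libraries. Counts were 0 in each pax2a-high library, against 36, 210 and 0 counts among pax2a-low libraries. Its level was 6.94, 26.1 and 0 CPM in pax2a-low libraries 1, 2 and 3. Against the floor of 3 counts per library, foxi3a was at least 78.7-fold lower among pax2a-high cells, a bound that leaves out the spread between libraries. The groups overlapped, because pax2a-low library 3 was also at 0. The related gene foxi1 (ENSDARG00000104566), which acts in otic placode development in zebrafish and whose mammalian counterpart marks acid-handling cells of the kidney and ionocytes of the airway, had 44 counts in pax2a-low library 1 and 0 in the other 5 libraries. The remaining foxi gene of the table, foxi2, had 0 counts in all 6 libraries. The foxi3 genes are related copies, and how multiply mapped reads were treated is not given in the sources used here, so reads could be split between them.

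Gcm2, which in zebrafish directs precursors towards the acid-secreting HR fate and is needed for gill buds, was seen in only a part of the pax2a-low libraries. Gcm2 (ENSDARG00000045413) had 0 counts in all pax2a-high libraries, against 0, 612 and 500 counts among pax2a-low libraries. By the same floor it was at least 274-fold lower among pax2a-high cells, with a pax2a-low mean of 38.3 ± 38.0 CPM (SD, n = 3). The groups overlapped through pax2a-low library 1, where foxi3b was at 334 CPM. Filtering on low counts removed foxi3a, foxi1 and gcm2, so 6 of the 9 members have a fitted fold change, most of them kept through their pax2a-low counts.

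Dmrt2a and foxg1c, like foxi3b, were abundant in every pax2a-low library. Dmrt2a (ENSDARG00000015072) encodes a DM-domain factor known in zebrafish for somite symmetry, and foxg1c (ENSDARG00000068380) encodes a forkhead factor. Dmrt2a had 2, 0 and 0 counts across pax2a-high libraries, against 1872, 1476 and 4557 counts across pax2a-low libraries. The group means were 0.0407 ± 0.0705 CPM across pax2a-high cells, against 300 ± 101 CPM across pax2a-low cells (SD; n = 3 per group). With so few pax2a-high counts, the pooled rate ratio, here pax2a-low over pax2a-high, was 10875 with a 95% exact Poisson interval of 3010 to 89814 that covers counting error only.

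Foxg1c had 0 counts in every pax2a-high library, against 1340, 761 and 2600 counts among pax2a-low libraries. It was at least 1325-fold lower among pax2a-high cells, with a pax2a-low mean of 185 ± 83.3 CPM (SD, n = 3). Dmrt2a and foxg1c were both lowest in pax2a-low library 2, at 183 and 94.4 CPM, the library in which foxi3b, foxi3a, gcm2, gata3 and tp63 were highest. Dmrt2a overlaps dmrt1 in the RefSeq annotation of the GRCz12tu assembly, and dmrt1 had 4 counts over all libraries.

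The GATA factors were present in every pax2a-low library, and gata3 in every pax2a-high library too. Both are early non-neural ectoderm factors, and both also act in blood or endothelial development. Gata3 (ENSDARG00000016526) had 94, 30 and 73 counts across pax2a-high libraries, against 462, 1234 and 656 counts across pax2a-low libraries. Its means were 3.10 ± 2.30 CPM across pax2a-high cells, against 97.8 ± 51.5 CPM across pax2a-low cells (SD; n = 3 per group), a log2 fold change of -4.98 (SE 1.16). The lowest pax2a-low library, at 51.1 CPM, was well above the highest pax2a-high library, at 5.74 CPM.

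Gata2a (ENSDARG00000059327) had 2, 0 and 82 counts across pax2a-high libraries, against 452, 530 and 1087 counts across pax2a-low libraries. It averaged 0.808 ± 1.30 CPM across pax2a-high cells, against 79.2 ± 11.7 CPM across pax2a-low cells (SD; n = 3 per group), with a log2 fold change of -6.58 (SE 1.77). Nearly all its pax2a-high counts came from library 3, and without that library the log2 fold change was -10.18. The value of -10.18 rests on 2 pax2a-high counts, under the floor of 3. The gene pbrm1 overlaps gata2a in the RefSeq annotation of the GRCz12tu assembly, which is not the build of these counts. In pax2a-high library 3 pbrm1 had 977 counts, against 166 and 74 in pax2a-high libraries 1 and 2 and 0, 0 and 14 among pax2a-low libraries. Endothelial markers summed to 27.2, 1.42 and 20.3 CPM across pax2a-high libraries, against 0.386, 26.6 and 47.6 CPM across pax2a-low libraries. Some sums were almost wholly 1 gene. Fli1a was at 27.2 CPM in pax2a-high library 1 and 26.6 CPM in pax2a-low library 2. Egfl7 was at 46.0 CPM in pax2a-low library 3. Cdh5 had counts, 406 of them, in pax2a-high library 3 only. The part of pbrm1 or of endothelial cells in the gata2a counts was not tested.

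Tp63, the master factor of basal keratinocytes and epidermal precursors, was uneven between libraries. Tp63 (ENSDARG00000044356) had 0, 0 and 33 counts across pax2a-high libraries, against 87, 494 and 0 counts across pax2a-low libraries. Its level was 0, 0 and 0.927 CPM across pax2a-high libraries, against 16.8, 61.3 and 0 CPM across pax2a-low libraries, and the groups overlapped through pax2a-low library 3. The log2 fold change of -6.33 has an SE of 3.11, and without pax2a-high library 3 it was -11.32. That library held all its pax2a-high counts, so the value of -11.32 depends on the prior count and is no bound. Summed basal keratinocyte markers (7 genes, among them krt5 and itgb4) stood at 975, 706 and 231 CPM across pax2a-high libraries, against 327, 1893 and 235 CPM across pax2a-low libraries. Krt5 made up most of the pax2a-low sums, at 299.7, 1634 and 209.9 CPM, while itgb4 was at 0.386, 149 and 18.5 CPM in pax2a-low libraries 1, 2 and 3. In pax2a-high libraries 1, 2 and 3 krt5 was at 785, 579 and 2.75 CPM and itgb4 at 104, 52.6 and 129 CPM. Pax2a-high library 3, the only one there with tp63 counts, thus had the lowest krt5. The part of basal keratinocytes in the tp63 counts was not tested.

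Of the 6 members tested across all genes, 4 were past the threshold (adjusted p of 0.05) of edgeR's quasi-likelihood test and lower in pax2a-high cells: foxi3b, dmrt2a, foxg1c and gata3. Of all 12524 genes tested, 1.46% were lower and 1.12% higher. Since the members were chosen on this contrast, and foxi3b, dmrt2a and foxg1c passed the filter through their pax2a-low counts, nothing is read from that count or from how it holds. Gata3 was no longer past the threshold without any 1 of the pax2a-high libraries (log2 fold change of -5.73, -4.61 and -4.75 without libraries 1, 2 and 3), without pax2a-low library 2 (-4.52), without both libraries numbered 3 (-5.07) or at a threshold of 0.01. Gata2a passed under 11 of the 17 alternatives and tp63 under 0 of the 14 in which it was tested. Among the gata2a passes were those without pax2a-high library 3 and without both libraries numbered 3. They left gata2a with 2 pax2a-high counts.

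**Figure D2:**
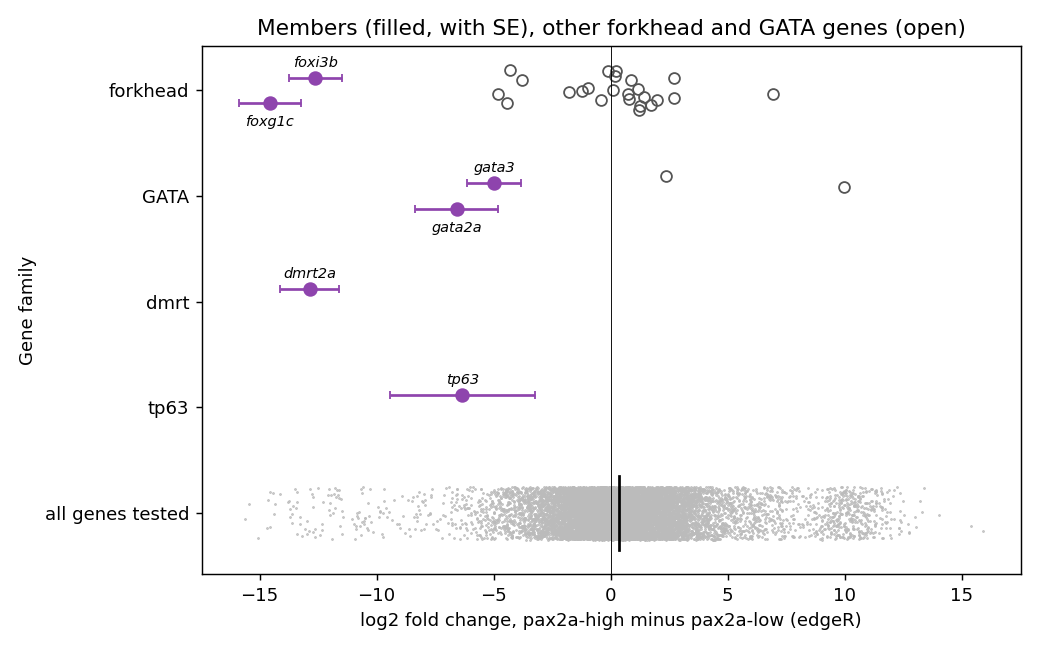
Log2 fold change, pax2a-high minus pax2a-low, of the 6 tested members (filled, bars are SE), of other tested forkhead and GATA genes (open) and of all 12524 genes tested (grey, black line at the median of 0.35). Fitted values of foxg1c and gata2b, each with a group at 0 counts, depend on the prior count and are no bounds. The forkhead and GATA members lie left of the other genes drawn in their rows.

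Few other genes of the same families passed the test. Among other forkhead rows, 44 of 53 had counts and 24 were tested, of which 0 were higher and 1 was lower by edgeR, with a median log2 fold change of 0.48 against 0.35 over all genes tested. Of 6 other GATA rows, 4 had counts and 2 were tested, and of 4 other dmrt rows, 2 had counts and 0 were tested, with no call in either family. At an adjusted p of 0.05, DESeq2 called 2 genes of these and related families higher and 2 lower. At an unadjusted p of 0.05, edgeR had 1222 genes higher and 576 lower across the table. The gene that fell was foxp1b, a forkhead repressor, at 16.6 ± 7.62 CPM across pax2a-high cells, against 354 ± 163 CPM across pax2a-low cells (SD; n = 3 per group; log2 fold change of -4.42 with SE 0.67; by edgeR, adjusted p = 0.00099). Its copy foxp1a, at 0, 8.25 and 6.68 CPM across pax2a-high libraries, against 147, 180 and 89.8 CPM across pax2a-low libraries, did not overlap between groups but missed the threshold (edgeR adjusted p = 0.116). It passed with DESeq2, with no count filter, with the replicate block and without pax2a-high library 2 or 3 (adjusted p of 0.0048, 0.00061, 0.0011, 0.0022 and 0.0035).

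Relatives of the members differed in which group held their counts. Foxg1b had 0, 0 and 28 counts across pax2a-high libraries, against 384, 2 and 0 across pax2a-low libraries. Foxg1d had 0, 112 and 112 counts across pax2a-high libraries and 0 in each pax2a-low library. Gata2b had 242, 68 and 183 counts in pax2a-high and 0 in each pax2a-low library, the opposite arrangement to gata2a, without passing the test (edgeR adjusted p = 0.199). Dmrt2b had 0 counts in all 6 libraries. Tp73, a relative of tp63, had 391, 0 and 1 counts across pax2a-high libraries, against 0, 1 and 0 across pax2a-low libraries.

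Transporters, pumps and channels of ionocytes are among the genes with which these factors are known to be expressed. The list used here also held the carbonic anhydrase genes ca2 and ca15a, the binding-protein gene igfbp5a and the protease gene pappaa. Of 39 listed, 38 had counts and 27 were tested, of which 13 fell and 1 rose in pax2a-high cells by edgeR, with a median log2 fold change of -6.47 (0.35 over all genes tested). The list, like the members, was drawn up with results of this contrast known, and genes near 0 in pax2a-high cells entered the test through their pax2a-low counts, so these calls are no independent support. Calls fell on KS-cell potassium channel copies (5 of 6 tested in the KS-cell and SLC26 list), NaR-cell calcium genes (3 of 4), sodium-potassium pump subunits (3 of 7) and HR-cell genes (2 of 7). None of 2 NCC-cell genes and none of 1 chloride-secretion gene passed. Some calls did not hold under every alternative. The pump subunits atp1a1a.2 and atp1a1a.3 no longer passed with limma (adjusted p of 0.283 and 0.091), among other settings. The channel copy kcnj1a.1 was lost with the filter of 5 CPM (edgeR adjusted p = 0.058), among other settings. Kcnj1a.6 was lost without pax2a-low library 1 or 3 (edgeR adjusted p of 0.086 and 0.102). The gene that rose was the pump subunit atp1b1a, at 1567 ± 201 CPM across pax2a-high cells, against 115 ± 96.1 CPM across pax2a-low cells (SD; n = 3 per group; log2 fold change of 3.77 with SE 0.58; by edgeR, adjusted p = 0.0011).

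The pump subunit gene atp1b1b was at 0.112 ± 0.0105 CPM across pax2a-high cells, against 2519 ± 367 CPM across pax2a-low cells (SD; n = 3 per group; log2 fold change of -14.37 with SE 0.60; adjusted p = 8.79e-10 by edgeR). The potassium channel copy kcnj1a.4 had 0, 0 and 2 counts across pax2a-high libraries, against 1505, 1491 and 2526 counts across pax2a-low libraries, though reads may be split among the kcnj1a copies. The ammonium transporter rhbg had 0 counts in every pax2a-high library, against 1554, 1571 and 1196 counts among pax2a-low libraries. It was thus at least 1402-fold lower among pax2a-high cells.

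Among the NaR-cell genes, the sodium-calcium exchanger slc8a1b had 0, 2 and 0 counts across pax2a-high libraries, against 762, 2161 and 1052 counts across pax2a-low libraries. Its pooled ratio of pax2a-low over pax2a-high was 5468, with a 95% exact Poisson interval of 1513 to 45171. Pappaa, a protease that cleaves growth-factor-binding proteins, was at 1.45 ± 1.23 CPM across pax2a-high cells, against 113 ± 73.8 CPM across pax2a-low cells (SD; n = 3 per group; log2 fold change of -6.28 with SE 1.31; by edgeR, adjusted p = 0.014). The pappaa call was lost without pax2a-high library 1 (edgeR adjusted p = 0.091) or pax2a-low library 2 (0.152). The calcium channel trpv6 had 0, 0 and 201 counts across pax2a-high libraries, against 456, 3890 and 2266 counts across pax2a-low libraries and did not pass (edgeR adjusted p = 0.243). It did not pass without pax2a-low library 1 or 3 either (edgeR adjusted p of 0.447 and 0.463), among other settings. It passed without pax2a-high library 3, which held all its pax2a-high counts, and without both libraries numbered 3. Leaving out pax2a-high library 3 sets pax2a-high cells to 0 counts, so nothing is read from those passes. Trpv6 also passed with DESeq2, with limma, with the replicate block and without pax2a-high library 2.

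**Figure D3:**
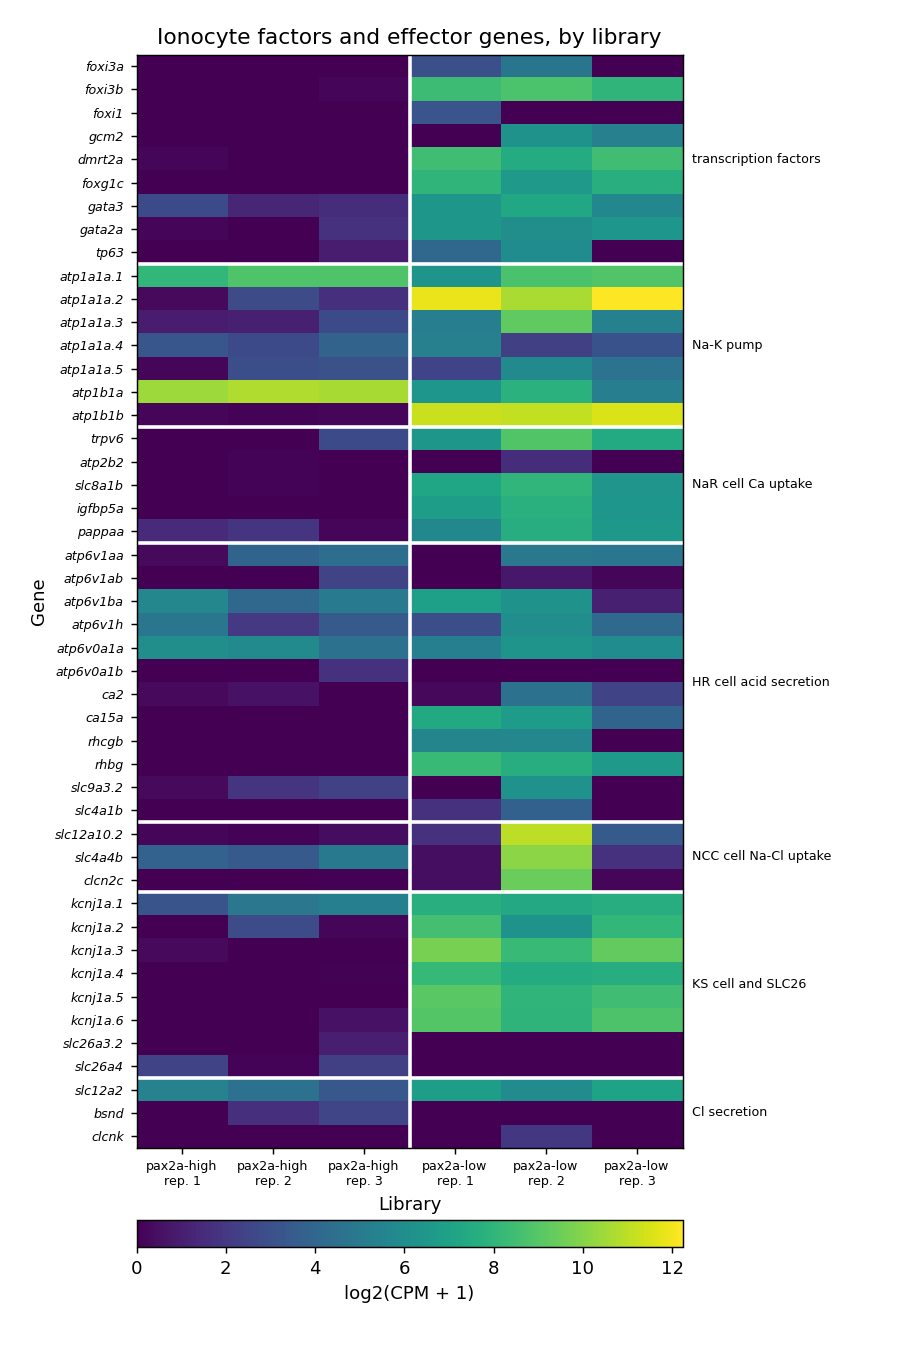
Log2(CPM + 1) of the 9 factors and of 38 ionocyte effector genes with counts (rows, by role) in the 3 pax2a-high and 3 pax2a-low libraries (columns). Colours compare libraries within a row, since gene lengths were not used. Most rows are dark on the left, atp1b1a is brighter there, and slc12a10.2, slc4a4b and clcn2c are brightest in pax2a-low library 2.

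Genes of NCC cells were concentrated in 1 pax2a-low library. Slc12a10.2, the sodium-chloride cotransporter that defines NCC cells, had 2, 2 and 11 counts across pax2a-high libraries, against 12, 16500 and 129 counts across pax2a-low libraries. Pax2a-low library 2 held 99.4% of its pax2a-low CPM, 99.8% of that of the bicarbonate cotransporter slc4a4b and 99.9% of that of the chloride channel clcn2c. Slc4a4b was at 13.2, 10.1 and 29.9 CPM across pax2a-high libraries, above its 0.386 and 2.34 CPM in pax2a-low libraries 1 and 3. The sodium-proton exchanger slc9a3.2, listed here with HR-cell genes, had 4, 52 and 148 counts across pax2a-high libraries. All its pax2a-low counts, 622, were in pax2a-low library 2. Among factors, that library held 79.0% of the pax2a-low CPM of foxi3a, 78.5% of that of tp63 and 66.1% of that of gcm2. Its share was smaller for foxi3b (42.5%), gata2a (27.7%), dmrt2a (20.4%) and foxg1c (17.0%). A high level in pax2a-low library 2 was not particular to NCC-cell genes. Mucous cell markers summed to 27.8, 1270 and 43.9 CPM in pax2a-low libraries 1, 2 and 3, with muc5.1 at 1217 CPM in library 2. Fibroblast markers summed to 3.86, 79.3 and 1.56 CPM. Endothelial and erythroid marker sums were instead highest in pax2a-low library 3.

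HR-cell genes differed in how they were spread over the pax2a-low libraries, where gcm2 was at 0, 75.9 and 39.0 CPM in libraries 1, 2 and 3. The carbonic anhydrase gene ca2, at 0.193, 22.8 and 4.68 CPM, had the order of gcm2, as did the proton pump subunits atp6v1aa, atp6v1h and atp6v0a1a. The carbonic anhydrase gene ca15a was in another order, at 171, 106 and 14.5 CPM, and so was rhbg, at 299.6, 195 and 93.2 CPM. The proton pump subunit atp6v1ba shared the order of ca15a, at 120, 77.7 and 1.09 CPM. All these pump subunits overlapped between pax2a-high and pax2a-low libraries, and none passed by edgeR. The ammonium transporter rhcgb was at 46.6, 49.6 and 0 CPM. With 3 libraries this is a description of these samples.

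**Figure D4:**
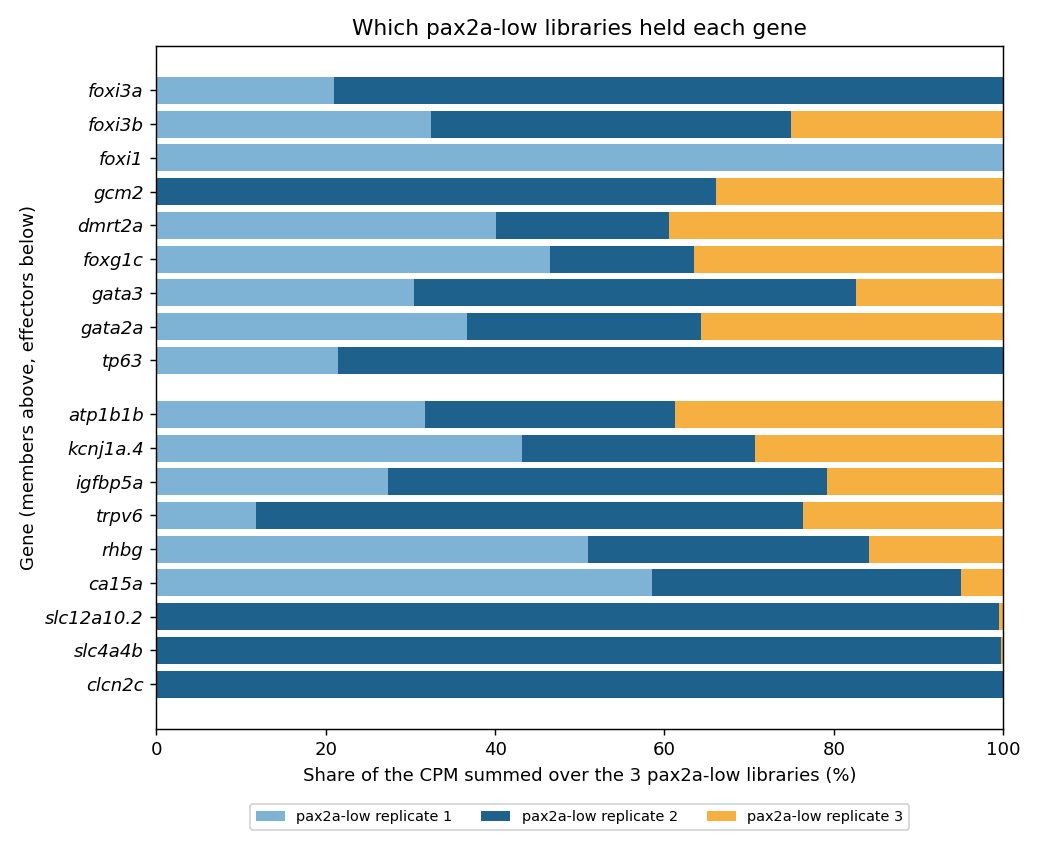
Share (%) of each gene's summed pax2a-low CPM that came from pax2a-low replicates 1, 2 and 3, for the 9 factors (above) and 9 effector genes (below). Foxi3b, gata2a and atp1b1b are spread over all 3 replicates, foxi1 comes from replicate 1 alone, and slc12a10.2, slc4a4b and clcn2c come almost wholly from replicate 2.

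The factors were also set against the pump subunit atp1b1b, a scale set within each library. Atp1b1b had 12457, 17939 and 37603 counts in pax2a-low libraries 1, 2 and 3. All 7 listed pump subunits had counts in each of these libraries. Per 1000 atp1b1b counts, gata2a had 36.3, 29.5 and 28.9 counts, a range of 1.26-fold. Dmrt2a had 150, 82.3 and 121 (1.83-fold) and foxi3b 139, 197 and 88.1 (2.23-fold). Foxg1c had 108, 42.4 and 69.1 (2.54-fold) and gata3 37.1, 68.8 and 17.4 (3.94-fold). The remaining factors each had a pax2a-low library at 0, so they have no fold range. Gcm2 had 0, 34.1 and 13.3, tp63 6.98, 27.5 and 0, foxi3a 2.89, 11.7 and 0, and foxi1 3.53, 0 and 0. The same ratio ranged 955-fold for slc12a10.2, from 0.963 in library 1 to 920 in library 2, with 3.43 in library 3.

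Genes with a pattern most like that of foxi3b were sought among 8999 named genes by Pearson's correlation of log2(CPM + 1) over the 6 libraries, which mainly reflects the gap between the groups. The 8 highest, with r of 0.996 to 0.999, were rhcga, rgs5b, rap1gap2a, igfbp5a, atp1b1b, ppargc1a, kcnj1a.4 and slc8a1b. The closest, the ammonium transporter rhcga, had 0 counts in all pax2a-high libraries, against 368, 953 and 918 counts among pax2a-low libraries. Ppargc1a, a coactivator known for raising mitochondrial content, had 0, 6 and 0 counts across pax2a-high libraries, against 2155, 2435 and 2560 counts across pax2a-low libraries. These genes were selected for that gap, so no test of it is given.

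Hormone receptors, Notch genes and epidermal regulators of ionocytes mostly did not pass. Of 23 listed, 17 were tested, of which 1 rose, 0 fell and 16 did not pass by edgeR, with a median log2 fold change of -0.41 (0.35 over all genes tested). DESeq2 also called 1 of them higher, and called 2 lower. The gene that rose was her6, a hairy-related Notch target, at 795 ± 240 CPM across pax2a-high cells, against 68.8 ± 49.8 CPM across pax2a-low cells (SD; n = 3 per group; log2 fold change of 3.53 with SE 0.66; by edgeR, adjusted p = 0.0064). Her6 no longer passed without pax2a-high library 1 (edgeR adjusted p = 0.052) or pax2a-low library 1 (0.098). The Notch ligand gene jag2b was at 99.3 ± 15.4 CPM across pax2a-high cells, against 19.9 ± 17.7 CPM across pax2a-low cells (SD; n = 3 per group; edgeR adjusted p = 0.501).

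The corticosteroid receptor gene nr3c2 was at 33.0, 11.4 and 16.9 CPM across pax2a-high libraries, against 115, 171 and 172 CPM across pax2a-low libraries, without overlap, and just missed the threshold (log2 fold change -2.91, SE 0.76, edgeR adjusted p = 0.056). It passed under 9 of the other settings, with adjusted p of 0.0016 by DESeq2 and 0.047 with the replicate block at the ends of that range. Grhl1, a grainyhead factor of epidermis and ionocytes, was at 12.6 ± 14.9 CPM across pax2a-high cells, against 180 ± 31.2 CPM across pax2a-low cells (SD; n = 3 per group; edgeR adjusted p = 0.168). It passed with DESeq2, limma, no count filter and the replicate block, and without pax2a-high library 2 or 3.

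Markers of other cells that use these factors were also read. Lymphocyte markers, for a lineage in which gata3 acts, summed to 0.244 to 18.2 CPM across pax2a-high libraries, against 0.623 to 6.17 CPM across pax2a-low libraries, and cd8a and cd79b were at 0 throughout. Erythroid markers summed to 11.7 to 24.5 CPM across pax2a-high libraries, against 0.386 to 47.7 CPM across pax2a-low libraries, with gata1a at 0 throughout. Summed macrophage markers did not overlap between groups, at 16.1 to 155 CPM across pax2a-high libraries, against 594 to 1470 CPM across pax2a-low libraries, with 0 of 4 tested passing. Most of the sum in each group was cd74a and cd74b. In pax2a-low libraries 1, 2 and 3 these were at 404, 858 and 448 CPM and at 82.5, 430 and 384 CPM. Neutrophil and mast cell markers summed to at most 0.488 CPM across pax2a-high libraries, against 0.156 CPM across pax2a-low libraries. Neural and hair cell markers summed to 2.53 to 4.32 CPM across pax2a-high libraries, against 0 to 1.16 CPM across pax2a-low libraries. Surface keratinocyte markers summed to 161 to 441 CPM across pax2a-high libraries, against 480 to 1179 CPM across pax2a-low libraries, with 0 of 3 tested passing. The part of these cells in the factor levels was not tested.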

How the data were processed

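The authors deposited raw integer counts of reads for each gene. Per the submitters' processing notes, HISAT2 aligned the reads, featureCounts did the counting and the build was GRCz11. Tool versions, strandedness and the handling of reads with several matches are not given in the sources used here. Even numbers made up 67.8 to 89.0% of a library's nonzero counts, so a count may not be 1 molecule. Intervals and floors take each count as 1 molecule and leave out the spread between libraries. They may therefore be too narrow or too low even for counting error.

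Groups and replicate numbers came from sample titles. Counts were fitted by robust quasi-likelihood on the group alone, after filterByExpr and TMM (edgeR 4.0.16 under R 4.3.3), with Benjamini-Hochberg adjustment over 12524 genes at 0.05. The procedure was tested on simulated data. SE is the log2 fold change over the root of F. CPM use TMM-scaled library sizes. For a group at 0 counts, the bound divides the mean CPM of the group with counts by the mean floor of 3 counts per library. With 1 to 3 counts in a group, pooled ratios carry 95% exact Poisson intervals. Alternatives were DESeq2 1.42.0, its size factors in edgeR, limma 3.58.1 voom with quality weights, library sizes without 37 mitochondrial rows, other filters, a replicate block, thinned or halved counts, a threshold of 0.01 and leaving out libraries. Leaving out both libraries numbered 3 was chosen after seeing the data.

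Members and lists were chosen with earlier results of these data known. By the naming rule, all members are named, with pax2a, tg, the genes of the effector and regulator lists with the smallest p among those that passed (at most 4 a list), family genes that passed or had the highest level, the highest markers of other cells, and the 8 genes most like foxi3b. Only part of what that rule allows is printed. Genes that did not pass, other paralogs, pbrm1, the NCC-cell genes and the comparison with atp1b1b were chosen after their values were seen. Fibroblast, mucous cell and thrombocyte markers summed to 20.0 to 78.8, 65.6 to 853 and 2.22 to 7.33 CPM in pax2a-high and 1.56 to 79.3, 27.8 to 1270 and 0 to 1.87 CPM in pax2a-low libraries. The lists of thyroid transcription factors and thyroid follicular markers had 0 of 5 and 1 of 4 tested genes past the threshold and higher. All 5 and all 4 had positive log2 fold changes, with medians of 3.03 and 3.83 (0.35 over all genes tested). A few related genes are not reported here.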

Additional observations from a re-analysis of the deposited data

How the results depend on the processing

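The 6 fitted members had negative log2 fold changes under every alternative in which they were tested, and 4 of them were past the threshold in the analysis reported (3 to 5 when 1 library was left out). Moves of member values were set against each gene's pooled within-group SD of log2(CPM + 1). That scale is flattened near 0, unlike the fitted fold changes. Of 93 member values under alternatives, 68 moved by less than that SD and 25 by more, each keeping its sign. The members were chosen on this contrast and most were kept through their pax2a-low counts, so nothing is read from these signs. Effector genes past the threshold and lower numbered 10 to 14 when 1 library was left out, against 13 with all libraries. Over all genes, 140 were higher and 183 lower. Leaving out 1 library gave 40 to 270 higher and 120 to 253 lower, 0 to 1 regulators higher, 0 to 1 regulators lower and 1 to 2 family genes lower. A threshold of 0.01 gave 44 higher and 110 lower, no count filter 328 and 299, DESeq2 820 and 511, limma 309 lower, and a filter of 5 CPM 73 higher. Regulators lower numbered 1 with DESeq2 size factors, without mitochondrial rows, with thinned counts and with halved counts, and 2 with no filter, DESeq2 and limma. Family genes lower numbered 2 with no filter and with DESeq2, which also had 2 higher. The cause of these shifts was not tested. DESeq2 size factors moved the median log2 fold change of all genes to 0.24, against 0.35 with TMM. Gcm2 could be tested in 5 settings. It was past the threshold with no count filter and without pax2a-low library 1. That library was the only pax2a-low library with 0 gcm2 counts, so nothing is read from the pass without it. Gcm2 did not pass without pax2a-high library 1, 2 or 3 (edgeR adjusted p of 0.203, 0.080 and 0.078).

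With the replicate block, 425 genes were higher and 263 lower, 2 regulators and 2 family genes were lower and 1 family gene was higher. Same-numbered libraries deviated together with correlations of 0.032, 0.053 and 0.079, and each library correlated best with its own number. Correlations between differently numbered libraries were negative, from -0.053 to -0.0032. Each gene was centred within its group beforehand, so positive same-numbered values push the others to be negative, and the negative values add no evidence. The libraries are also labelled as sets 1 to 3, without a statement of what a set shared. Such small correlations cannot decide whether same-numbered libraries were pairs. Depth limits the zeros: 3 counts are up to 0.578 CPM in the shallowest pax2a-low library.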
